A study of Mus musculus with 24 samples.

Results

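Adipogenic transcription factors and corepressors are described here as a set of 9 genes fixed by name: Pparg, Rxra, Esrra, Cebpa, Cebpb, Srebf1, Stat5b, Ncor1 and Hdac5. A gene was kept where the deposited table holds a value above 0 in all 24 libraries, which 8 of the 9 do, among 5035 such genes of 22418 rows. Ncor1, a corepressor that binds unliganded nuclear receptors, has a value in 21 libraries. The partly filled rows of the table do not show which libraries their values belong to, so no value is given for Ncor1.

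The study set ribosome-protected fragments (RPF, the pieces of mRNA that ribosomes shield from nuclease) beside RNA-seq of the same material, all from C57BL/6 mice. Brown cultures were grown from stromal vascular cells of interscapular brown fat and white cultures from those of subcutaneous white fat. Each was taken at day 0, before induction, and at day 5, after induction with insulin, dexamethasone, IBMX and rosiglitazone and a change to medium that kept only the insulin, followed by medium without it. Rosiglitazone is an agonist of the PPARγ protein, so every day 5 culture had received a ligand of a member of the set. Tissues were interscapular brown fat (BAT) and epididymal white fat (eWAT) of mice aged 6 weeks, each replicate a pool of 3 males, and both tissues were taken from the same animals. The white cultures and the white tissue thus come from different depots. Every one of these 6 conditions has 2 RPF and 2 RNA libraries. The labels do not say that the culture duplicates came from separate cultures, so the spread between these libraries may be technical. The fit gives each gene a common variance over all groups, drawn toward a trend over all genes. Every SE and p-value thus also draws on the spread of groups outside the comparison.

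PPARγ, with its partner RXRα, and C/EBPα form the core of the adipocyte program: C/EBPβ acts early after induction, and PPARγ and C/EBPα then sustain each other and switch on fat cell genes. SREBP1 drives fatty acid synthesis, ERRα drives mitochondrial genes, and STAT5B carries growth hormone and cytokine signals to DNA. NCOR1 and HDAC5 work on the repressive side, NCOR1 as a scaffold for histone deacetylases and HDAC5 as a class IIa deacetylase that shuttles between nucleus and cytoplasm.

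Promoter windows from RefSeq (build GRCm38.p6, 250 bases before to 50 bases after a start site) were found for all 8 genes, 14 windows in all. They were searched on both strands for TTGCNNAA (a C/EBP motif), AGGTCA (the core element of nuclear receptors), TATAAA and CACGTG (an E-box), and matches are in capitals. Shown are the first and the last start site of Pparg and the start site of Cebpa, the pair of genes that code for the core regulators.
Pparg, chr6:115360894-115361193, plus strand: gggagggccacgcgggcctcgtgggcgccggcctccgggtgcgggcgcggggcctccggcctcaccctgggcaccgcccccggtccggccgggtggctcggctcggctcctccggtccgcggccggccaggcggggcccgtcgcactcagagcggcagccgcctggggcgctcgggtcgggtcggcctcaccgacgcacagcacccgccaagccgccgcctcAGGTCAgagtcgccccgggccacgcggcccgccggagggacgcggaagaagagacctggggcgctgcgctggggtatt
Pparg, chr6:115421816-115422115, plus strand: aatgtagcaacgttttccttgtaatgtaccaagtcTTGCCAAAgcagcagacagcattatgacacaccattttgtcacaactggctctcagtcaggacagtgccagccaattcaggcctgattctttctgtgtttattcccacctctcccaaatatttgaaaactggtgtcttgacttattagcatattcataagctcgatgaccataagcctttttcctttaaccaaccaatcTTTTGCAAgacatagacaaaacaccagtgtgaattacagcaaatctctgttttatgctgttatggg
Cebpa, chr7:35119043-35119342, plus strand: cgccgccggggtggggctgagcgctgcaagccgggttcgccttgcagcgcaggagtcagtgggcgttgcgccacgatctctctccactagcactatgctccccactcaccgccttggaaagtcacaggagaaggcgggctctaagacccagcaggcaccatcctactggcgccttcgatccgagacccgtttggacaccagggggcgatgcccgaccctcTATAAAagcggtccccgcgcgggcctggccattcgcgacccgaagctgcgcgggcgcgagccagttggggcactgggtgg
The last Pparg start site, which heads the transcript of the longer protein form (505 residues), holds TTGCNNAA at 215 and at 16 bases before the start, and no other window of the set holds that motif, which occurs in 10.8% of 32851 windows genome-wide. The first Pparg window holds AGGTCA, as do 16.3% of all windows and, within the set, the middle Pparg start site, an Rxra and a Stat5b start site. The Cebpa window holds TATAAA 30 bases before the start. The middle Pparg window holds it 29 bases before the start, on the other strand, and the Cebpb window after the start. At any position, 13.6% of all windows hold it. CACGTG was found in the Hdac5 window alone (7.15% of all windows). Such a match is a string of letters and not a measured binding site. The expression table has a single Pparg row, that of the shorter form (475 residues), and does not separate the start sites, nor the SREBP1a and SREBP1c starts of Srebf1 or the protein forms of the C/EBP genes.

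All levels are in RPKM, read counts scaled by the length of the coding sequence and by library size. Eff divides the RPF level by the RNA level. Reads were not given by the study and were recovered here, as the library size at which RPKM times coding length gives whole reads. The recovered sizes ranged from 217395 to 1765714 per RPF library and from 3757579 to 12307821 per RNA library. The RPF libraries of brown preadipocytes were the shallowest (242424 and 217395). Adipocyte markers (6 of 9 listed have values) summed to 915 to 1197 RNA RPKM in the day 0 libraries and 46679 to 58967 in the day 5 libraries. Preadipocyte and fibroblast markers (11 of 13) summed to 19958 to 20635 RNA RPKM at day 0, 3287 to 3319 in brown and 6318 to 6755 in white cultures at day 5, 1888 to 1929 in BAT and 5566 to 6106 in eWAT, so they were lower on the brown side at day 5 and in tissue. Of macrophage markers only Lyz2 and Lgals3 (2 of 11) have values, with a sum of 209 to 219 in BAT and 957 to 998 in eWAT. Of brown adipocyte markers only Ebf2 (1 of 11) does, and no endothelial, muscle, mesothelial or lymphocyte marker on the lists has a value in every library, so those cell types were not checked. The part of these shifts in the results was not tested. In bulk samples, fewer cells of a type and less RNA per cell cannot be told apart.

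Sequence composition moved with several of the comparisons. The GC content of the coding sequence was 48.1% in Pparg, 57.0% in Stat5b, 58.6% in Rxra, 60.4% in Hdac5, 60.9% in Srebf1, 61.8% in Esrra, 71.9% in Cebpa and 73.4% in Cebpb, against a median of 52.2% over the 4689 genes with a sequence. Between day 0 and day 5 of brown cultures, the median log2 RPF difference of all genes went from 0.39 in the eighth of genes with the lowest GC content to -1.08 in the eighth with the highest. Between brown and white cultures at day 5, the median log2 RNA difference went from 0.83 to -0.27 over the same bins. Each member result was therefore also computed with the GC trend of every library subtracted, a step chosen after the data had been seen, and that value is given beside the results it bears on. The gene lists were not computed in this way. Among all genes 10 exceed 70% GC, 2 of them Cebpa and Cebpb, so few genes define the subtracted trend there.

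**Figure D1:**
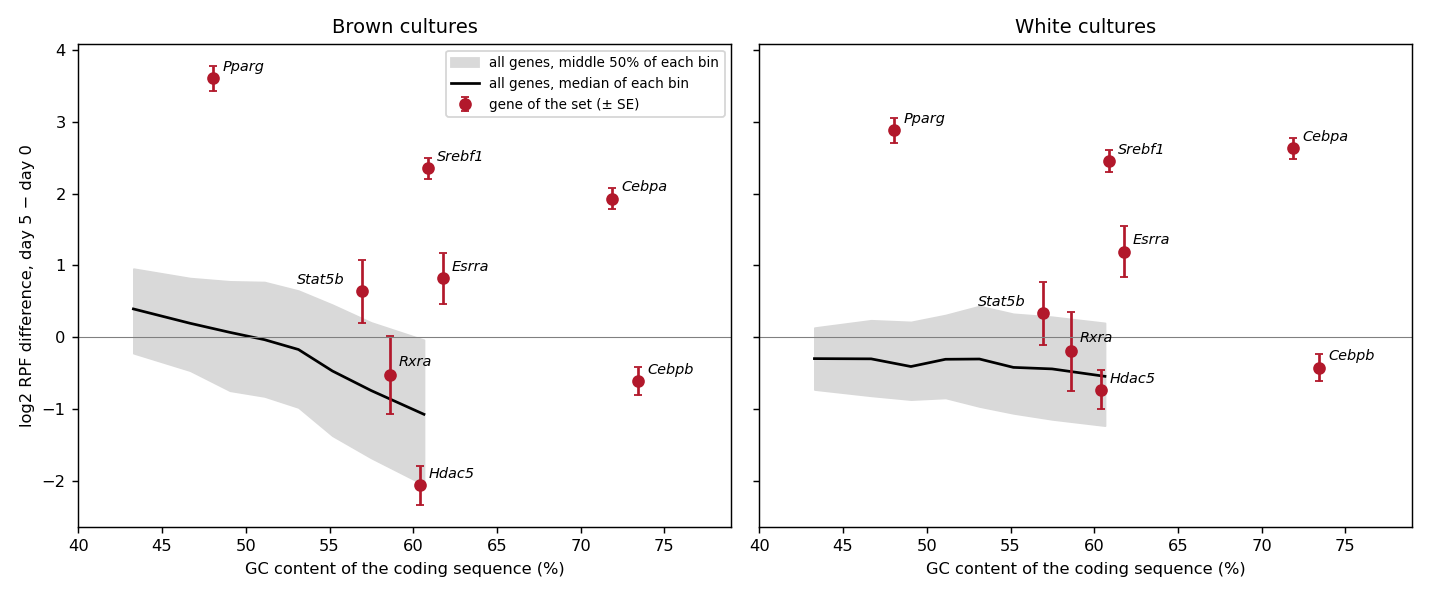
The log2 RPF difference between day 5 and day 0 (vertical axis) is plotted against the GC content of the coding sequence (horizontal axis, percent) for brown cultures (left) and white cultures (right); red points are the 8 genes with their SE, and the black line and grey band are the median and the middle 50% of all genes in 8 bins. In brown cultures the median falls from 0.39 to -1.08 across the bins, and Pparg, Cebpa and Srebf1 lie above the middle 50% of their bin in both lineages, where the band ends at the median GC content of the last bin.

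A second property of the libraries concerns day 0 RPF. In the 50 genes (members excluded) with the largest RNA rise, day 0 RNA was 2.40% of the day 5 level in white cultures while day 0 RPF was 9.95% of the day 5 level. In brown cultures the values were 3.18% and 5.07%. The 50 genes were picked by their RNA ratio in each lineage separately, so some excess of RPF over RNA follows from the choice alone. Genes of the target lists below were not excluded from the 50. The excess of RPF over RNA, taken as a share of the day 5 level, makes 55.4% of the white day 0 RPF of Pparg, 46.7% of that of Cebpa, 41.3% of that of Srebf1 and 18.6% of that of Esrra, against 22.7%, 7.23%, 9.65% and 3.28% in brown cultures. Each member result, but no list result, was also computed with that share subtracted, and its cause was not tested.

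Pparg (NM_001127330) codes for the nuclear receptor that is required for fat cell formation. Its RPF level was 40.5 and 29.0 RPKM in the brown day 0 libraries and 411 and 422 at day 5. In white cultures it was 39.7 and 33.3 at day 0 and 267 and 269 at day 5. Day 5 libraries thus lay far above day 0 libraries in both lineages, with no overlap, and the brown day 5 libraries were the highest of all 12. The log2 RPF difference was 3.60 ± 0.17 (SE, n = 2 per group) in brown and 2.88 ± 0.17 in white cultures (limma, adjusted p = 1.1e-09 and 1.9e-08). These values exceed those of 98.4% and 98.7% of all genes.

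The RNA of Pparg rose as well, from 19.99 and 23.0 RPKM to 364 and 376 in brown cultures and from 14.7 and 14.0 to 196 and 211 in white cultures. The log2 RNA differences were 4.11 ± 0.11 and 3.83 ± 0.11 (limma, adjusted p = 1.5e-12 and 2.3e-12). Pparg was the member with the highest Eff in every group, at 1.62 and 2.55 in brown and white preadipocytes, 1.13 and 1.32 at day 5, and 0.835 and 0.806 in BAT and eWAT, where the median gene stood between 0.856 and 1.03 in all groups. The fall of Eff in white cultures (log2 -0.94 ± 0.21, limma adjusted p = 0.0023) turned to 0.24 with the day 5 share subtracted. In brown cultures the Eff difference was -0.50 ± 0.21, which missed the threshold (adjusted p = 0.062) and passed it with the GC trend subtracted (-0.83, adjusted p = 0.0029), with median-of-ratios scaling (-0.55, adjusted p = 0.042) and without replicate 2 of the brown day 0 RPF (-0.74, adjusted p = 0.0042).

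Brown cultures held more Pparg RNA than white cultures on both days. The log2 difference was 0.58 ± 0.11 at day 0 (limma, adjusted p = 0.0062) and 0.86 ± 0.11 at day 5 (adjusted p = 4.0e-05). With the GC trend subtracted these differences were 0.55 (adjusted p = 0.0011) and 0.54 (adjusted p = 0.00022). The day 0 call was lost without replicate 2 of the brown (0.48, adjusted p = 0.11) or of the white RNA libraries (0.55, adjusted p = 0.084). RPF did not show the day 0 difference (-0.09 ± 0.17, adjusted p = 0.73), and with the day 5 share subtracted it became 0.72 (adjusted p = 0.029). At day 5 the RPF difference was 0.64 ± 0.17 (adjusted p = 0.029), and leaving out any of the 4 day 5 RPF libraries gave 0.62 to 0.66 with adjusted p of 0.10 to 0.14. It also missed the threshold with quantile scaling (0.51, adjusted p = 0.13), without a variance trend (adjusted p = 0.063) and in the fit with the day 5 share subtracted (adjusted p = 0.094). The lineage by day term, by which the day 5 change was larger in brown cultures, was 0.72 ± 0.25 for RPF (adjusted p = 0.041). With libraries left out singly, it held only without replicate 1 of brown or replicate 2 of white day 0 (otherwise 0.48 to 0.74). With all libraries it missed the threshold with median-of-ratios (0.52, limma adjusted p = 0.13) and quantile scaling (0.48, adjusted p = 0.22). It also did so without a variance trend (adjusted p = 0.067), with the tissue libraries left out of the fit (adjusted p = 0.087) and with voom on recovered reads (0.66, adjusted p = 0.14). The term was 0.31 (adjusted p = 0.39) with the GC trend and -0.08 (adjusted p = 0.87) with the day 5 share subtracted. The Eff of Pparg at day 0 was lower in brown than in white cultures (-0.67 ± 0.21, adjusted p = 0.018). That call was lost without replicate 2 of brown or replicate 1 of white day 0 RPF and without replicate 2 of brown or of white day 0 RNA (-0.63 to -0.43, adjusted p 0.062 to 0.084), with the GC trend subtracted (-0.30, adjusted p = 0.25), and turned to 0.14 with the day 5 share subtracted. In tissue, Pparg RPF was 206 and 210 in BAT and 179 and 192 in eWAT, a log2 difference of 0.17 ± 0.17 (adjusted p = 0.47). The RNA difference was 0.11 ± 0.11 (adjusted p = 0.35), and it passed with median-of-ratios scaling (0.37, adjusted p = 0.0066) and with the GC trend subtracted (0.29, adjusted p = 0.0077).

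**Figure D2:**
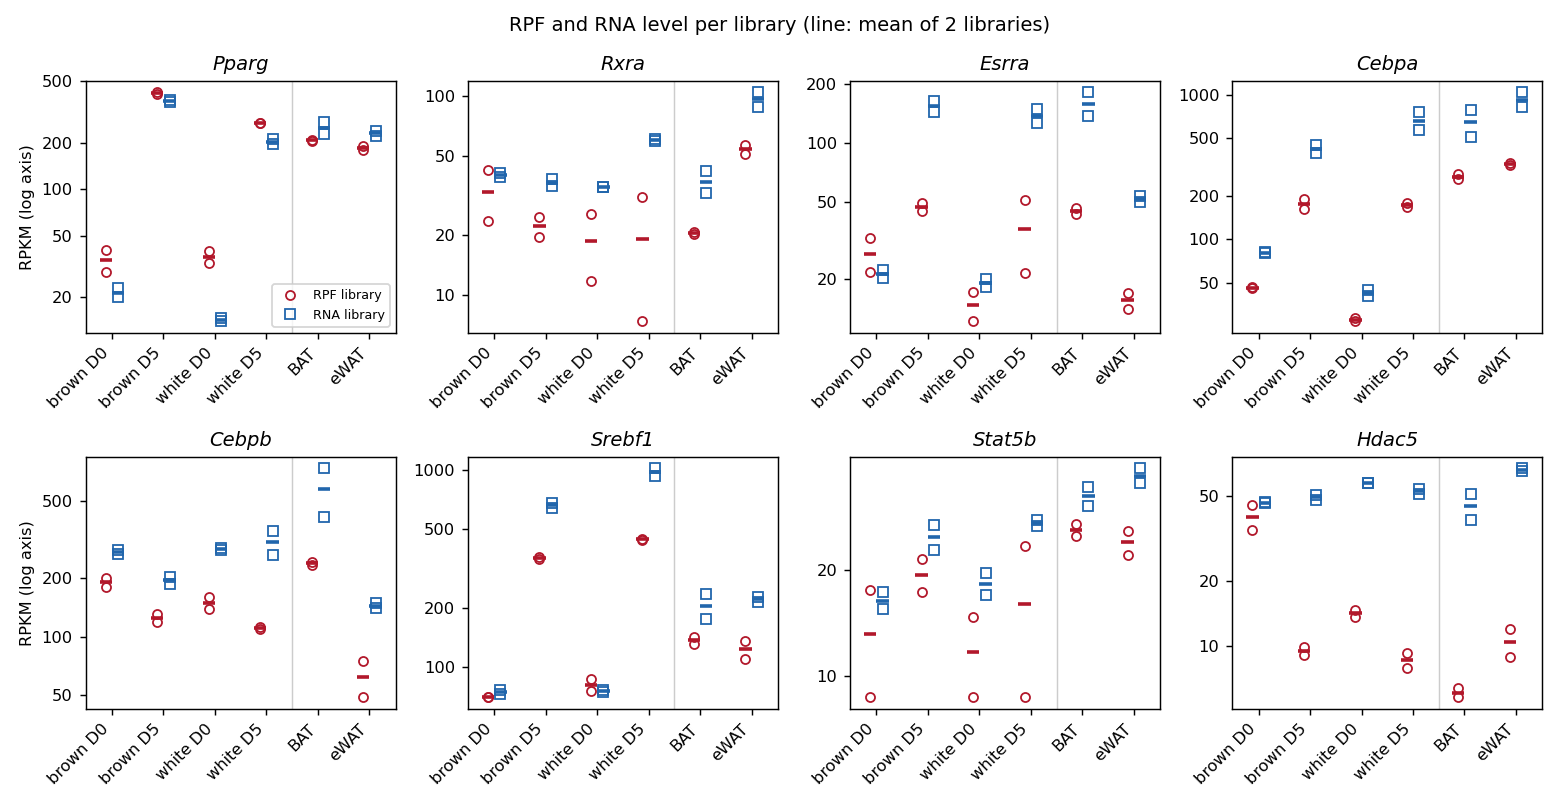
RPF (red circles) and RNA (blue squares) levels in RPKM on a log axis are shown for each library of the 8 genes in the 6 conditions, with short lines for the mean of 2 libraries. Pparg, Cebpa and Srebf1 stand higher at day 5 than at day 0 in both assays, while Hdac5 RNA varies little and its RPF is highest in the brown day 0 libraries, at 34.5 and 45.4.

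Rxra (NM_011305) codes for the shared heterodimer partner of PPARγ and other nuclear receptors. Its RNA was nearly level in brown cultures, at 39.4 and 41.2 RPKM on day 0 and 38.2 and 35.3 on day 5. In white cultures it rose from 34.8 and 35.1 to 59.7 and 61.0, a log2 difference of 0.79 ± 0.12 (limma, adjusted p = 5.5e-05). The change differed between the lineages by -0.92 ± 0.17 (brown minus white, adjusted p = 0.0019), and was -0.73 (adjusted p = 0.00082) with the GC trend subtracted. Rxra RNA was highest in eWAT (105 and 88.5) and lower in BAT (32.6 and 41.9), a log2 difference of -1.38 ± 0.12 (BAT minus eWAT, adjusted p = 4.2e-07). With the GC trend subtracted that difference was -0.93 (limma, adjusted p = 7.0e-07).

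The RPF of Rxra rests on few reads. The brown day 0 libraries held 8 and 13 reads and the white day 5 libraries 35 and 4, and the RPF levels of the latter were 31.1 and 7.35 RPKM. Both day 0 and day 5 libraries overlapped in each lineage, and no RPF difference of Rxra in cultures passed the test. Without replicate 1 of the white day 5 RPF, the white difference went from -0.20 to -1.24 (adjusted p = 0.043), so its size depends on 1 library. In tissue the RPF of Rxra was 20.7 and 20.2 in BAT and 51.3 and 57.1 in eWAT, without overlap. With the GC trend subtracted the log2 difference was -1.06 (limma, adjusted p = 0.16). Without that step it was -1.41 ± 0.55, which also missed the threshold (adjusted p = 0.057). It passed at the same value when the tissue libraries were fitted alone (adjusted p = 0.00022) or when either white day 5 RPF library was left out (adjusted p = 0.011 and 0.010), and with voom on recovered reads (-1.39, adjusted p = 9.5e-07).

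Esrra (NM_007953) codes for ERRα, an orphan nuclear receptor that acts with PGC-1 coactivators on genes of respiration. Its RNA was 22.4 and 20.4 RPKM at day 0 and 164 and 144 at day 5 in brown cultures, and 18.3 and 20.2 then 149 and 127 in white cultures. The log2 RNA difference was 2.85 ± 0.14 in brown and 2.84 ± 0.14 in white cultures (limma, adjusted p = 4.7e-10 and 5.2e-10), and the lineage by day term was 0.01 ± 0.19. After subtraction of the GC trend that term was 0.32 (adjusted p = 0.044), and brown cultures held more Esrra RNA than white cultures at day 5 (0.48, adjusted p = 0.00038). RPF went only from 32.5 and 21.8 to 44.8 and 49.4 in brown and from 12.2 and 17.3 to 21.6 and 50.8 in white cultures. The RPF difference was 0.82 ± 0.36 in brown (adjusted p = 0.062) and 1.19 ± 0.36 in white cultures (adjusted p = 0.013). The brown difference passed with median-of-ratios scaling (0.96, adjusted p = 0.033), with quantile scaling (1.10, adjusted p = 0.022) and with the brown cultures fitted alone (adjusted p = 0.038), and without brown day 0 replicate 1 it was 1.11 (adjusted p = 0.041). Between the lineages at day 0 the RPF difference of 0.87 ± 0.36 missed the threshold (adjusted p = 0.072), and it passed with the day 5 share subtracted (1.13, adjusted p = 0.035) and with median-of-ratios scaling (1.03, adjusted p = 0.042). With the GC trend subtracted it was 0.41 (limma, adjusted p = 0.42).

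Eff of Esrra fell in both lineages, from 1.27 to 0.306 in brown (log2 -2.02 ± 0.40, limma adjusted p = 0.00070) and from 0.767 to 0.263 in white cultures (-1.65 ± 0.40, adjusted p = 0.0054). In brown cultures 2.66% of all genes had a lower Eff difference. With the GC trend subtracted the Eff difference was -1.16 (adjusted p = 0.027) in brown and -1.001 (adjusted p = 0.080) in white cultures, and the brown RPF difference was 1.84 (adjusted p = 0.00057). Only 10 and 6 RPF reads fell on Esrra in the brown day 0 libraries, 16 in all with an exact 95% Poisson interval of 9.15 to 25.98, which covers counting error only. The white RPF call was lost without replicate 1 of day 0 (0.94, adjusted p = 0.10) or replicate 2 of day 5 (0.58, adjusted p = 0.18), and without replicate 1 of day 5 the values were 1.81 for RPF and -1.03 for Eff, both still past the threshold. The brown RPF difference passed without replicate 1 of brown day 0 (1.11, adjusted p = 0.041) or without either white day 5 library (0.82, adjusted p = 0.019 and 0.020).

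Esrra also separated the tissues. RPF was 46.6 and 43.3 in BAT against 17.1 and 14.2 in eWAT, and RNA 137 and 181 against 49.9 and 53.5, with no overlap in either assay. The log2 differences were 1.53 ± 0.36 for RPF (limma, adjusted p = 0.0042) and 1.61 ± 0.14 for RNA (adjusted p = 2.6e-07), and Eff was 0.283 and 0.302.

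Cebpa (NM_007678) codes for C/EBPα, which maintains the mature fat cell program. Its RPF level was 45.9 and 46.9 RPKM at day 0 and 164 and 191 at day 5 in brown cultures, and 28.7 and 27.1 then 178 and 167 in white cultures. RNA went from 80.1 and 81.7 to 448 and 399 in brown and from 40.5 and 44.6 to 756 and 570 in white cultures. The log2 RPF differences were 1.93 ± 0.15 and 2.63 ± 0.15 (limma, adjusted p = 1.2e-07 and 1.1e-08), and the RNA differences 2.39 ± 0.18 and 3.95 ± 0.18 (adjusted p = 6.4e-08 and 4.0e-10). After subtraction of the GC trend the RPF differences were 3.52 in brown and 3.42 in white cultures, so the brown value moved by more than 1.5 times.

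The RNA rise of Cebpa was smaller in brown cultures. The lineage by day term was -1.56 ± 0.26 for RNA (limma, adjusted p = 0.00088) and -1.03 (adjusted p = 2.2e-05) with the GC trend subtracted. For RPF it was -0.70 ± 0.21 (adjusted p = 0.024), and with the GC trend subtracted it was 0.10 (adjusted p = 0.79). The RPF call was also lost without replicate 1 of brown day 5, replicate 2 of white day 0 or replicate 1 of white day 5 (-0.66 to -0.59, adjusted p 0.059 to 0.10), when the tissue libraries were left out of the fit (adjusted p = 0.074) and with voom on recovered reads (-0.73, adjusted p = 0.15). At day 0 brown cultures held more Cebpa than white cultures, by 0.93 ± 0.18 for RNA (adjusted p = 0.011) and 0.73 ± 0.15 for RPF (adjusted p = 0.0023). The RNA call was lost when any of the 4 day 0 RNA libraries was left out (0.86 to 1.00, adjusted p 0.058 to 0.12), and the RPF difference was 0.07 (adjusted p = 0.78) with the GC trend subtracted. The RPF call was also lost with the day 0 libraries fitted alone (adjusted p = 0.082) and with voom (0.75, adjusted p = 0.11).

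At day 5 the order was turned for RNA, with a brown minus white difference of -0.63 ± 0.18 (limma, adjusted p = 0.012). That call was lost without replicate 2 of brown (-0.55, adjusted p = 0.093) or replicate 1 of white day 5 RNA (-0.43, adjusted p = 0.12), and the difference was -0.09 (adjusted p = 0.32) with the GC trend subtracted. RPF was nearly level between the lineages (0.03 ± 0.15, adjusted p = 0.91). Eff of Cebpa fell in white cultures from 0.655 to 0.260 (-1.32 ± 0.24, adjusted p = 0.00051). That fall was -0.41 (adjusted p = 0.26) with the day 5 share subtracted and 0.05 (adjusted p = 0.86) with the GC trend subtracted, and it missed the threshold with voom on recovered reads (-1.33, adjusted p = 0.058). In brown cultures the Eff difference was -0.46 ± 0.24 (adjusted p = 0.15), and 1.18 (adjusted p = 1.8e-05) with the GC trend subtracted. That step also brought past the threshold the Eff difference between lineages at day 0 (-0.19 to -0.86, adjusted p = 0.00037) and the Eff lineage by day term (0.86 to 1.12, adjusted p = 0.0018), which also passed without either BAT RNA library (adjusted p = 0.041 each).

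In tissue, Cebpa RPF was 282 and 262 in BAT and 328 and 339 in eWAT, the highest of all groups, with a difference of -0.29 ± 0.15 (adjusted p = 0.13) that passed only with voom on recovered reads (-0.30, adjusted p = 0.013). RNA was 509 and 787 in BAT and 1037 and 817 in eWAT, and the difference was -0.54 ± 0.18 (limma, adjusted p = 0.019). It was -0.23 (adjusted p = 0.23) without replicate 1 of BAT, -0.37 (adjusted p = 0.16) without replicate 1 of eWAT and -0.86 without replicate 2 of BAT. With median-of-ratios scaling it was -0.28 (adjusted p = 0.22), and with the GC trend subtracted it turned to 0.33 (adjusted p = 0.0017).

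Cebpb (NM_009883) codes for C/EBPβ, which is induced within hours of the adipogenic signal and precedes PPARγ and C/EBPα. RPF was 181 and 202 RPKM at day 0 and 131 and 120 at day 5 in brown cultures, and 139 and 160 then 109 and 113 in white cultures. The log2 RPF difference was -0.61 ± 0.19 in brown (limma, adjusted p = 0.014) and -0.43 ± 0.19 in white cultures (adjusted p = 0.078), where it passed without either eWAT RPF library (adjusted p = 0.032 and 0.034). Without replicate 2 of brown day 0 it was -0.53 (adjusted p = 0.063), and without replicate 2 of brown day 5 it was -0.54 (adjusted p = 0.086). With the GC trend subtracted the brown difference turned to 1.08 (adjusted p = 0.00023), so its direction depends on whether that trend is subtracted. The Eff differences of Cebpb, -0.12 ± 0.29 in brown and -0.53 ± 0.29 in white cultures, became 1.63 (adjusted p = 7.5e-06) and 0.95 (adjusted p = 0.0021) in the same step.

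Cebpb RNA was 266 and 281 at day 0 and 203 and 188 at day 5 in brown cultures, a difference of -0.48 ± 0.20 (limma, adjusted p = 0.044). The adjusted p passed 0.05 when any of 8 RNA libraries was left out, namely both libraries of brown day 0, brown day 5, white day 0 and eWAT (-0.54 to -0.43, adjusted p 0.054 to 0.17). It also did so with median-of-ratios scaling (-0.30, adjusted p = 0.22) and with no trend in the prior variance (adjusted p = 0.059). In white cultures RNA was 282 and 286 at day 0 and 354 and 264 at day 5 (0.11 ± 0.20, adjusted p = 0.63), which turned to -0.52 (adjusted p = 3.3e-05) with the GC trend subtracted. At day 5 brown cultures held less Cebpb RNA than white cultures (-0.65 ± 0.20, adjusted p = 0.017). That call was lost without replicate 1 (-0.70, adjusted p = 0.051) or replicate 2 of brown (-0.59, adjusted p = 0.10) or replicate 1 of white day 5 RNA (-0.44, adjusted p = 0.15), and with the GC trend subtracted (-0.08, adjusted p = 0.43).

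The largest tissue difference of the set in either assay was that of Cebpb. RPF was 243 and 235 in BAT and 48.7 and 74.5 in eWAT, and RNA was 418 and 743 in BAT and 149 and 140 in eWAT. The log2 differences were 1.99 ± 0.19 (limma, adjusted p = 3.2e-06) and 1.94 ± 0.20 (adjusted p = 1.8e-06), about 4-fold in each assay (3.97 and 3.85), with no overlap between the tissues. Eff was 0.412 and 0.425.

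Srebf1 (NM_011480) codes for SREBP1, the membrane-bound factor that, once cleaved, turns on fatty acid synthesis genes. Its RPF level was 70.3 and 70.3 RPKM at day 0 and 354 and 362 at day 5 in brown cultures, and 75.7 and 87.0 then 444 and 447 in white cultures. RNA went from 76.0 and 72.9 to 685 and 647 in brown and from 76.4 and 74.5 to 1025 and 941 in white cultures. The log2 RPF differences were 2.35 ± 0.15 and 2.46 ± 0.15 (limma, adjusted p = 1.8e-08 and 2.1e-08), and the RNA differences 3.16 ± 0.12 and 3.70 ± 0.12 (adjusted p = 3.9e-11 and 8.7e-12). In every case the libraries of day 0 and day 5 did not overlap.

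Srebf1 RNA was lower in brown than in white cultures at day 5, by -0.56 ± 0.12 (limma, adjusted p = 0.0017), and by -0.27 (adjusted p = 0.0038) with the GC trend subtracted. The lineage by day term for RNA was -0.54 ± 0.17 (adjusted p = 0.024). It was lost without any of 6 RNA libraries, namely both of brown day 0, both of white day 0, replicate 2 of brown day 5 and replicate 1 of white day 5 (-0.57 to -0.48, adjusted p 0.054 to 0.090). With quantile scaling it was -0.42 (adjusted p = 0.061), and with the GC trend subtracted -0.26 (adjusted p = 0.040). Eff fell from 0.944 to 0.538 in brown (-0.81 ± 0.19, adjusted p = 0.0024) and from 1.08 to 0.453 in white cultures (-1.25 ± 0.19, adjusted p = 8.1e-05). The brown fall was -0.01 (adjusted p = 0.98) with the GC trend subtracted, and the white fall -0.47 (adjusted p = 0.11) with the day 5 share subtracted. Between the lineages at day 0, RPF and Eff passed only after subtraction of the GC trend (-0.64, adjusted p = 0.0045, and -0.63, adjusted p = 0.0017), as did the Eff lineage by day term (0.66, adjusted p = 0.021). The RPF lineage by day term was -0.11 ± 0.21, and -0.74 (adjusted p = 0.035) with the day 5 share subtracted. No tissue difference passed the test (RPF 0.15 ± 0.15, adjusted p = 0.44; RNA -0.12 ± 0.12, adjusted p = 0.38), and with the GC trend subtracted both were higher in BAT, at 0.50 (adjusted p = 0.013) and 0.41 (adjusted p = 6.1e-05). The RPF difference also passed with median-of-ratios scaling (0.42, adjusted p = 0.048), and the RNA difference was -0.34 (adjusted p = 0.0047) without replicate 2 of BAT.

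Stat5b (NM_001113563) codes for a signal transducer that growth hormone activates in fat cells. Its RNA rose from 17.3 and 15.4 RPKM to 26.7 and 22.7 in brown and from 17.0 and 19.5 to 27.7 and 26.6 in white cultures, and the groups did not overlap. The log2 RNA differences were 0.59 ± 0.12 and 0.58 ± 0.12 (limma, adjusted p = 0.00075 and 0.00080). RPF was 8.74 and 17.5 at day 0 and 21.5 and 17.3 at day 5 in brown cultures, and 8.73 and 14.7 then 23.2 and 8.73 in white cultures, so days overlapped in both. The RPF differences were 0.64 ± 0.44 (adjusted p = 0.23) and 0.33 ± 0.44 (adjusted p = 0.56). The brown day 0 value rests on 14 reads in both libraries together (exact 95% Poisson interval 7.65 to 23.5), and a difference of the size of the RNA change was not detectable at this depth and spread. With quantile scaling the brown RPF difference was 1.23 (adjusted p = 0.034) and with the GC trend subtracted 1.27 (adjusted p = 0.026). Tissue levels were close, at 26.9 and 25.0 RPF in BAT and 22.0 and 25.8 in eWAT (0.12 ± 0.44, adjusted p = 0.85). Stat5a and Stat5b are near-identical neighbours, and reads were allowed 1 mapped site each. A read that fits both may thus have been counted on either or on neither.

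Hdac5 (NM_010412) codes for the deacetylase of the set, and its RPF and RNA parted in brown cultures. Its RNA hardly moved, at 46.6 and 46.1 RPKM on day 0 and 50.6 and 47.8 on day 5 (log2 0.08 ± 0.12, limma adjusted p = 0.52; 0.26, adjusted p = 0.0029, with the GC trend subtracted). Its RPF level was 34.5 and 45.4 at day 0 and 9.10 and 9.81 at day 5, without overlap. The RPF difference was -2.07 ± 0.27 (adjusted p = 1.9e-05), a ratio of 0.239, and the Eff difference was -2.15 ± 0.27 (adjusted p = 6.6e-06). Eff fell from 0.862 to 0.192, and 1.95% of all genes had a lower Eff difference. Subtracting the GC trend gave differences of -1.12 for RPF (adjusted p = 0.0022) and -1.39 for Eff (adjusted p = 0.00014), which kept the direction and the call at a smaller size. In the eighth of genes with the highest GC content, which holds Hdac5, the middle 50% of RPF differences ran from -2.06 to -0.038, so Hdac5 lay at its lower edge.

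In white cultures Hdac5 RNA was 57.4 and 57.1 at day 0 and 53.8 and 50.9 at day 5 (-0.13 ± 0.12, limma adjusted p = 0.31; -0.22, adjusted p = 0.0088, with the GC trend subtracted). RPF was 14.6 and 13.7 at day 0 and 7.83 and 9.25 at day 5, a difference of -0.73 ± 0.27 (adjusted p = 0.036). That call was lost without any of the 4 white RPF libraries (-0.85 to -0.61, adjusted p 0.055 to 0.15) and was -0.39 (adjusted p = 0.26) with median-of-ratios scaling, -0.30 (adjusted p = 0.41) with quantile scaling and -0.27 (adjusted p = 0.42) with the GC trend subtracted. It also missed the threshold with the white libraries fitted alone (adjusted p = 0.081) and with the day 5 share subtracted (-0.67, adjusted p = 0.054).

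In the RPF of Hdac5 the lineages differed at day 0, and no difference passed at day 5. The brown minus white difference at day 0 was 1.49 ± 0.27 for RPF (limma, adjusted p = 0.0011) and 1.79 ± 0.27 for Eff (adjusted p = 5.5e-05), and 1.07 (adjusted p = 0.0085) and 1.36 (adjusted p = 0.00017) with the GC trend subtracted. At day 5 the RPF difference was 0.15 ± 0.27 (adjusted p = 0.77). The RNA differences between the lineages did not pass (-0.30 ± 0.12 at day 0, adjusted p = 0.21, and 0.0091 with those groups fitted alone; -0.09 ± 0.12 at day 5, adjusted p = 0.53). After subtraction of the GC trend RNA was lower in brown cultures at day 0 (-0.29, adjusted p = 0.016) and higher at day 5 (0.19, adjusted p = 0.034), with a lineage by day term of 0.48 (adjusted p = 0.0021). The lineage by day term was -1.33 ± 0.38 for RPF (adjusted p = 0.018) and -1.55 ± 0.38 for Eff (adjusted p = 0.0099). For Eff it was -1.33 (adjusted p = 0.0070) with the GC trend subtracted, and for RPF -0.85 (adjusted p = 0.11). The RPF term also missed the threshold without replicate 2 of brown day 0, replicate 1 of brown day 5 or replicate 2 of white day 5 (-1.28 to -1.14, adjusted p 0.056 to 0.060). The brown day 0 RPF rests on 28 and 33 reads in the shallowest libraries of the series. Only in that group did the Eff of Hdac5 lie near the middle of all genes, with 44.3% of genes lower, against 0.417% to 1.69% in the other 5 groups.

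BAT held less Hdac5 than eWAT, with RPF of 6.34 and 5.76 against 8.82 and 11.98 and RNA of 38.6 and 50.7 against 67.1 and 65.0. The log2 differences were -0.77 ± 0.27 (limma, adjusted p = 0.038) and -0.58 ± 0.12 (adjusted p = 0.00060). The RPF call was lost without any of 5 RPF libraries, namely both of BAT, both of brown day 5 and replicate 2 of eWAT (-0.84 to -0.55, adjusted p 0.052 to 0.23), with median-of-ratios (-0.50, adjusted p = 0.18) and quantile scaling (-0.34, adjusted p = 0.39) and with the tissues fitted alone (adjusted p = 0.058). The RNA difference was -0.38 (adjusted p = 0.0025) without replicate 1 of BAT. Subtracting the GC trend gave differences of -0.41 (adjusted p = 0.25) for RPF and -0.06 (adjusted p = 0.41) for RNA.

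**Figure D3:**
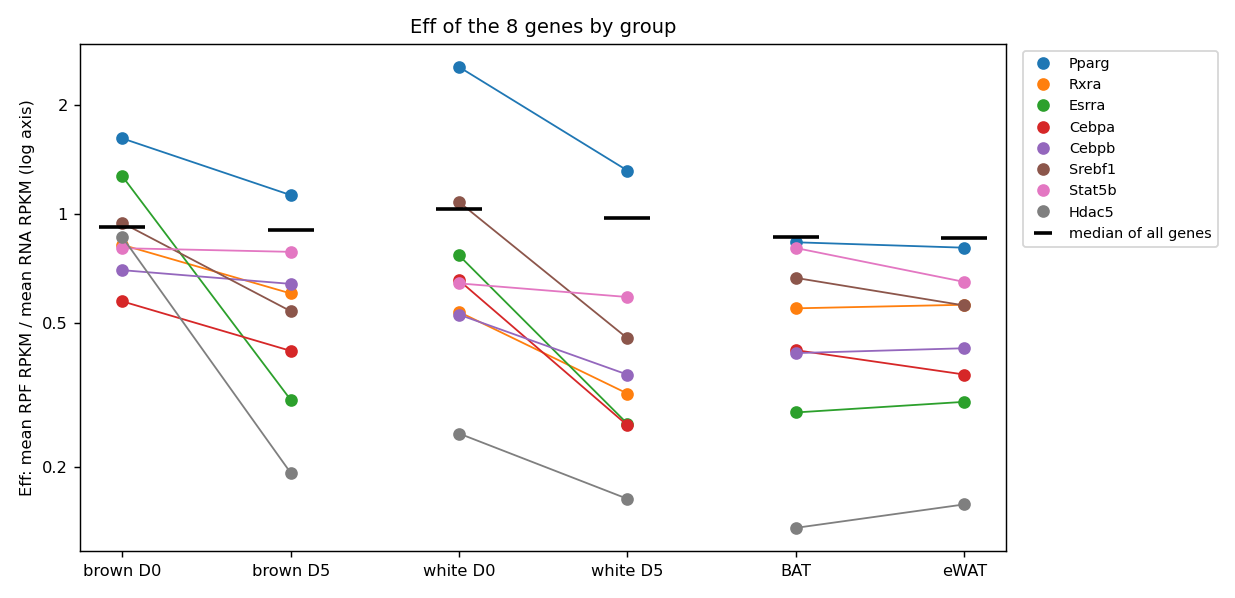
Eff (mean RPF level over mean RNA level) is plotted on a log axis for each of the 8 genes in the 6 conditions; lines join the days of a lineage and the tissues, and black dashes mark the median of all genes. Hdac5 goes from 0.862 in brown day 0 to 0.192 in brown day 5, and Pparg is the highest of the 8 in every group.

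Over the set, 5 of 8 genes changed in RPF between day 0 and day 5 of brown cultures, 3 higher and 2 lower, where 60.6% of all genes passed the test (26% higher, 34.7% lower). In white cultures 5 changed, 4 higher and 1 lower, against 52.8% of all genes (16.7% higher, 36.1% lower). For RNA 6 genes passed in brown cultures, 5 of them higher, against 74.6% of all genes (29.7% higher, 44.9% lower), and 6 passed in white cultures, each higher, against 81% (27.5% higher, 53.4% lower). For Eff, 3 were lower in brown and 4 in white cultures, and none higher. Of all genes 35.9% passed in brown (16.1% higher, 19.9% lower) and 24.3% in white cultures (7.94% higher, 16.3% lower). After subtraction of the GC trend the members called for Eff were 2 higher and 3 lower in brown and 1 higher and 2 lower in white cultures. For RPF they were 6 higher and 1 lower in brown and 4 higher and 0 lower in white cultures, and for RNA 6 higher and 1 lower and 6 higher and 2 lower. The median difference of all genes was itself -0.16 and -0.38 for RPF and -0.20 and -0.37 for RNA in brown and white cultures.

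**Figure D4:**
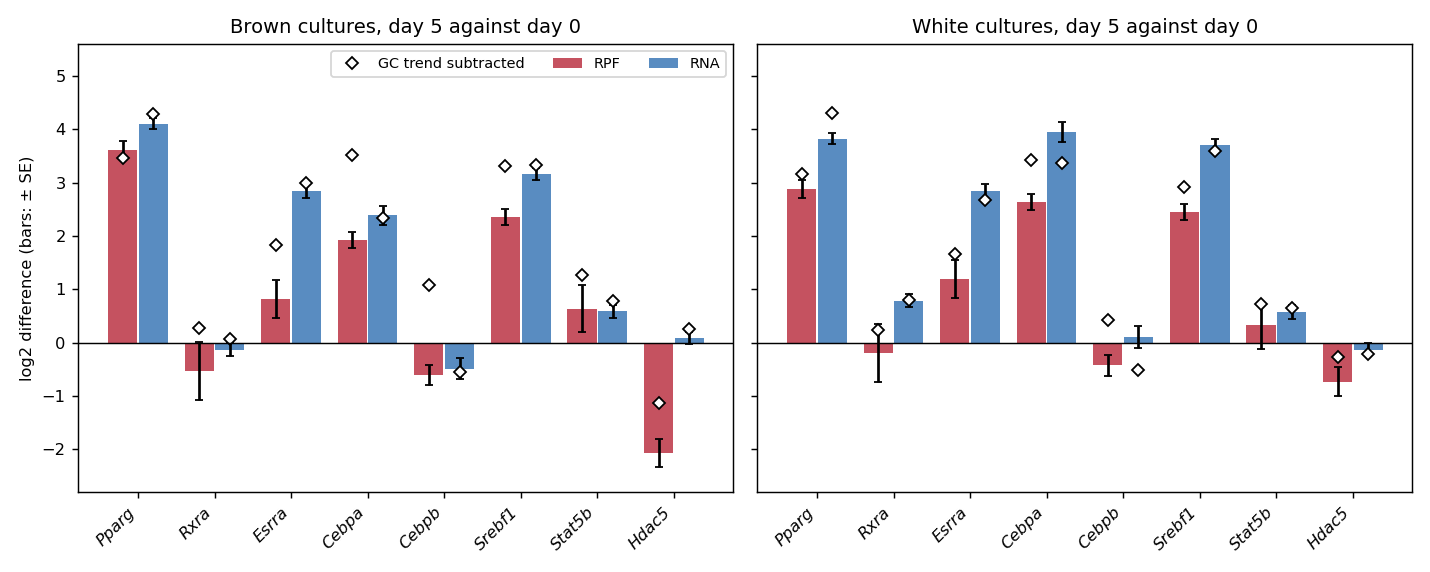
Bars give the log2 difference between day 5 and day 0 for RPF (red) and RNA (blue) with its SE in brown cultures (left) and white cultures (right), and open diamonds give the value with the GC trend subtracted. Pparg, Cebpa and Srebf1 are at 1.93 or more in both assays and lineages, and the RPF bar of Cebpb in brown cultures (-0.61) has its diamond on the other side of 0, at 1.08.

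Between the lineages at day 0, 2 genes were higher for RPF, where 37.3% of all genes passed (12.4% higher, 24.9% lower). For RNA 2 were higher (3.75% of all genes, 2.9% higher and 0.854% lower). For Eff 1 was higher and 1 lower (33.2%, with 10.9% higher and 22.2% lower). The counts became 1 higher and 1 lower for RPF, 2 higher and 1 lower for RNA, and 1 higher and 2 lower for Eff once the GC trend was subtracted. At day 5, 1 passed for RPF (13.7% of all genes, 5.48% higher and 8.26% lower). For RNA 5 passed (51.9%, with 32% higher and 19.9% lower), of which only Pparg was higher in brown cultures; after subtraction of the GC trend 3 were higher (Pparg, Esrra and Hdac5) and 2 lower. For Eff 0 passed (7.41%, with 2.24% higher and 5.16% lower). For that count of 0 in Eff, limma gave 2 members with an unadjusted p under 0.05, Cebpa and Cebpb, and voom on recovered reads called 0. Cebpb passed with the day 5 groups fitted alone (0.82, limma adjusted p = 0.033). The lineage by day term passed for 3 genes in RPF, 1 higher and 2 lower (31.2% of all genes, 20% higher and 11.3% lower). It passed for 3 in RNA, each lower (35.3%, with 21.6% higher and 13.7% lower), and for 1 in Eff, lower (15.6%, with 9.79% higher and 5.78% lower). After subtraction of the GC trend it passed for 0 in RPF, for 2 higher and 3 lower in RNA, and for 2 higher and 1 lower in Eff. Comparisons that share a group of libraries are not independent of each other.

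Between the tissues, 3 genes passed for RPF (39.8% of all genes, 11.6% higher and 28.1% lower), with Cebpb and Esrra higher in BAT and Hdac5 lower. For RNA 5 passed (69.2%, with 19.1% higher and 50.2% lower), Cebpb and Esrra higher in BAT and Rxra, Cebpa and Hdac5 lower. The counts became 3 higher and 0 lower for RPF and 5 higher and 1 lower for RNA once the GC trend was subtracted. For Eff none passed (4.05%, with 3.12% higher and 0.933% lower), 0 had an unadjusted p under 0.05 in limma, and voom on recovered reads called 0. With quantile scaling the Eff of Cebpa was higher in BAT (0.87, limma adjusted p = 0.036). The median difference of all genes was -0.31 for RPF and -0.30 for RNA.

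**Figure D5:**
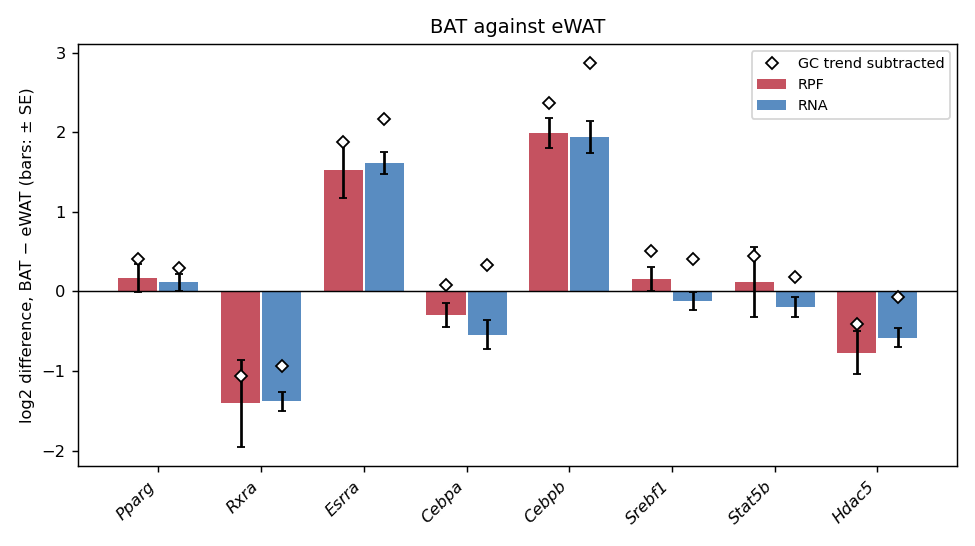
Bars give the log2 difference of BAT minus eWAT with its SE for RPF (red) and RNA (blue), and open diamonds the value with the GC trend subtracted. Cebpb (1.99 and 1.94) and Esrra (1.53 and 1.61) are higher in BAT in both assays, and the RNA of Cebpa (-0.54) has its diamond above 0, at 0.33.

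The orders of the RPF levels differed between the genes. Pparg ran from brown day 5 through white day 5, BAT, eWAT and white day 0 to brown day 0, 11.998-fold from the highest to the lowest mean, where of these neighbours only the day 0 groups had overlapping libraries. Cebpa ran from eWAT through BAT, brown day 5, white day 5 and brown day 0 to white day 0, 11.97-fold, and only the day 5 groups overlapped. Srebf1 was highest in white day 5 and lowest in brown day 0, 6.33-fold apart, and BAT and eWAT overlapped. Hdac5 RPF ranged over 6.61-fold, from brown day 0 to BAT, and its RNA over 1.48-fold. Rxra, Stat5b and Esrra ranged over 2.90-, 2.21- and 3.19-fold in RPF, and most of their neighbouring groups overlapped. Culture and tissue levels are set side by side here without a test.

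The target genes of these factors, are taken from lists compiled with earlier results of these data known and are given as counts. Of 21 PPARγ targets with values (32 listed), 19 were higher and 1 lower in RPF at day 5 of brown cultures, and 20 were higher and 1 lower in white cultures. The median log2 differences were 3.56 and 3.39, against -0.16 and -0.38 over all genes. In brown cultures 26% of all genes were called higher and 34.7% lower, and in white cultures 16.7% and 36.1%. The fatty acid carrier Fabp4 rose by 5.11 ± 0.08 and the insulin-regulated glucose transporter Slc2a4 by 5.46 ± 0.20 in brown cultures (limma, adjusted p = 9.5e-14 and 8.7e-11), the lipase Pnpla2 by 4.42 ± 0.11 and the acyl-CoA synthetase Acsl1 by 3.55 ± 0.13. In RNA, 11 of the 21 were higher in brown than in white cultures at day 0 and 1 lower, where 2.9% of all genes were called higher and 0.854% lower. In RPF, 14 were lower and 2 higher, where 24.9% of all genes were called lower and 12.4% higher. The excess described above was larger in white day 0 RPF (9.95% of the day 5 level, against 2.40% for RNA). It comes from genes picked by their RNA rise, which may include these targets, and its part in these counts was not tested.

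Of 17 SREBP1 targets (22 listed), 10 were higher and 3 lower in RPF at day 5 in brown cultures, and 11 higher and 2 lower in white cultures. The shares of all genes were 26% higher and 34.7% lower in brown, and 16.7% and 36.1% in white cultures. The median log2 differences of the list were 2.51 and 2.06. Acetyl-CoA carboxylase Acaca (3.88 ± 0.15), ATP citrate lyase Acly (3.29 ± 0.15) and the desaturases Scd1 (4.63 ± 0.10) and Scd2 (2.51 ± 0.09) had the smallest adjusted p in brown cultures. At day 5, 13 of the 17 held less RNA in brown than in white cultures and none more, as Srebf1 did. There 19.9% of all genes were called lower and 32% higher. In tissue 11 held more RNA in BAT and 4 less (19.1% and 50.2% of all genes), while Srebf1 itself did not pass.

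Of 36 ERRα targets (38 listed), 36 were higher in RPF at day 5 in brown and 35 in white cultures, and none lower. The median log2 differences were 3.62 and 2.33, and 26% and 16.7% of all genes were called higher. All 36 were higher in BAT than in eWAT in both assays, against 11.6% of all genes for RPF and 19.1% for RNA. The malate dehydrogenase Mdh1 rose by 4.10 ± 0.10 in brown and 2.73 ± 0.10 in white cultures, and the ATP synthase subunits Atp5b by 3.45 ± 0.08 and 2.13 ± 0.08 and Atp5a1 by 2.89 ± 0.08 and 1.97 ± 0.08. The lineage by day term for RPF was above 0 and passed for all 36, where 20% of all genes were called higher. For RNA it passed for 11 of the 36 (21.6% of all genes). At day 0, 33 of the 36 were lower in brown than in white RPF (24.9% of all genes), and 0 in RNA (0.854% of all genes). The excess described above, from genes picked by their RNA rise, was larger in white day 0 RPF, and its part in this count was not tested. At day 5, 13 of the 36 were higher in brown RPF and 0 lower, against 5.48% and 8.26% of all genes. In RNA 23 were higher and 0 lower, against 32% and 19.9%. Esrra itself had an RPF lineage by day term of -0.37 ± 0.51 (limma, adjusted p = 0.61).

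Other transcription factors of adipogenesis (33 with values beside the members, of 81 listed) were mixed. In RPF at day 5 of brown cultures 8 were higher and 13 lower, against 26% and 34.7% of all genes. The median log2 difference was -0.19, near the -0.16 of all genes. The 4 with the smallest adjusted p all fell: the nuclear factor Nfix (-2.75 ± 0.15), Srebf2, the paralog of Srebf1 that acts on cholesterol synthesis (-2.17 ± 0.21), the thyroid hormone receptor Thra (-2.37 ± 0.29) and Cebpd, which acts beside Cebpb in the early phase (-2.32 ± 0.35). Thra, like Hdac5, had RNA near level (-0.15 ± 0.09) and RPF that was higher in brown than in white day 0 cultures (2.32 ± 0.29). In that RPF comparison 9 of the 33 were called higher and 6 lower, against 12.4% and 24.9% of all genes.

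Corepressors and coactivators (34 beside Hdac5, of 49 listed) had 9 higher and 8 lower in RPF at day 5 of brown cultures. There 26% of all genes were called higher and 34.7% lower. The median log2 difference of the list was 0.15. Among those with the smallest adjusted p, the repressor Ctbp1 (-2.67 ± 0.19), Mta1 of the NuRD complex (-2.55 ± 0.28) and Trim28 (-1.85 ± 0.19) fell. Their RNA differences were -0.52, -0.74 and -1.35. Ctbp1 was also higher in brown than in white day 0 RPF (1.81 ± 0.19), as Hdac5 was, without a called RNA difference (-0.22 ± 0.13). Most called genes of the list went the other way in that RPF comparison. Of the 34, 5 were higher and 11 lower, against 12.4% and 24.9% of all genes. Of 13 other genes of JAK-STAT5 signalling (29 listed), 3 were higher and 4 lower in RPF at day 5 of brown cultures. The shares of all genes were again 26% and 34.7%. The cytokine receptor Il6st (-1.98 ± 0.18) and the kinase Jak2 (-1.12 ± 0.35) were lower, and the insulin receptor substrate Irs2 (0.91 ± 0.29) was higher.

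For each member the genes most alike were those with the highest mean of Pearson r over the 12 RPF and over the 12 RNA libraries, a description over libraries that share groups. Pparg was most like the desaturases Scd4 (mean r 0.989) and Scd1 (0.980), whose reads may be shared among near-identical copies. Cebpa was most like Pla2g16 (0.985), a phospholipase of adipose tissue, and the carbonic anhydrase Car3 (0.978). Srebf1 was most like Arxes2 (0.979) and Ube4a (0.960), and Esrra like Ndufa8, a complex I subunit (0.965), and the peroxisome factor Pex6 (0.942). The likeness was weaker for Hdac5 (Srcap 0.884, Ppp2r3d 0.870), Stat5b (Dhrs3 0.878), Cebpb (Ppp1r10 0.839, Sema4b 0.802) and Rxra (Amotl1 0.813, Ptrf 0.808).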

How the data were processed

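Ribosome-protected fragments and RNA were measured in 12 libraries each, 2 per condition. The authors deposited 1 table of RPKM values per gene, library and assay: per the labels and the study's methods, adapters were trimmed with cutadapt 1.8.3 and reads mapped with TopHat2 2.0.9 and Bowtie 1.0.0 to the most abundant isoform of a gene; the genome build is not given in the sources used here. With reads recovered from RPKM and coding length, from 98.6% to 98.9% of values per library came out as whole reads (tolerance 0.05 reads). All per-sample columns were matched to labels.

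The 5035 genes above 0 in every library were tested with limma 3.58.1 under R 4.3.3, taking log2 of RPKM with nothing added, with a variance trend, 12 libraries per assay and 24 for Eff, where Eff was an assay by group interaction. P-values were adjusted over all 5035 genes (Benjamini-Hochberg, threshold 0.05). The code was tested on simulated data. SE is that of the fit, with a common variance per gene over all groups, and intervals cover counting error only. RPF values rest on fewer reads than RNA values.

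The members and lists were chosen with earlier results of these data known. Named genes are the members, the 2 genes most alike each, and up to 4 genes per list with the smallest adjusted p for RPF in brown cultures; some of these are not reported here. Alternatives were pseudocounts of 1 and 0.1, a mean of at least 5 RPKM, median-of-ratios and quantile scaling, a replicate block, separate fits, no variance trend, voom on recovered reads, leaving out each library, subtracting a day 5 share from day 0 RPF (50 genes) and, chosen after seeing the data, subtracting a loess trend on GC content (span 0.4; 4689 genes with a value, 93.1%).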

Additional observations from a re-analysis of the deposited data

Results flagged for a closer look

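The change from day 0 to day 5 differed between brown and white cultures, by the test of the difference itself (limma on 12 libraries per assay, 24 for Eff; brown minus white), in 7 results of 5 members. For RPF the difference was 0.72 in Pparg (adjusted p = 0.041), -0.70 in Cebpa (adjusted p = 0.024) and -1.33 in Hdac5 (adjusted p = 0.018). For RNA it was -0.92 in Rxra (adjusted p = 0.0019), -1.56 in Cebpa (adjusted p = 0.00088) and -0.54 in Srebf1 (adjusted p = 0.024). For Eff it was -1.55 in Hdac5 (adjusted p = 0.0099). Of all genes tested, 31.2% passed this test for RPF, 35.3% for RNA and 15.6% for Eff. With the GC trend subtracted the 3 RPF results missed the threshold and the RNA and Eff results passed it. Groups of 2 libraries are too small for a test of single outlying samples.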

How the results depend on the processing

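The pseudocounts, the minimum of 5 RPKM and the replicate block changed no call among 144 member results. Same-numbered libraries deviated from their group means with correlations of -0.07 to 0.02 for RPF and -0.33 to 0.36 for RNA. The RNA values went both ways and do not settle whether a number marks shared material. The same mice gave both tissues, and each tissue pool was divided between RNA-seq and ribosome profiling. The sources do not tie a number to a pool. The Eff fit took all libraries as independent, and the replicate block did not test a pairing of RPF with RNA libraries. That block gave the same counts of called members (5 and 5 for RPF, 6 and 6 for RNA in brown and white cultures at day 5).

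Counts of called members moved as follows. For RPF between lineages at day 0 (2 in the report) the count was 1 with separate fits and with voom and 4 with the day 5 share subtracted; at day 5 (1) it was 0 with quantile scaling, without a variance trend and with the day 5 share subtracted, and 3 with voom. For the RPF lineage by day term (3) it was 1 with separate fits and with voom and 0 with the GC trend subtracted, and for RPF between tissues (3) it was 5 with voom. For the RNA lineage by day term (3) it was 5 with the GC trend subtracted. For Eff it was 5 in brown cultures with the GC trend subtracted (3), 1 in white cultures with the day 5 share subtracted (4), and 1 between lineages at day 0 (2) with median-of-ratios scaling, separate fits, voom and the day 5 share subtracted. It was 1 between lineages at day 5 (0) with separate fits, 2 and 3 for the lineage by day term (1) with separate fits and with the GC trend subtracted, and 1 between tissues (0) with quantile scaling.

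Leaving out 1 library gave 4 to 6 and 3 to 6 called members for RPF in brown and white cultures, 2 to 3 and 0 to 1 between lineages at day 0 and day 5, 0 to 3 for the lineage by day term and 2 to 4 between tissues. For RNA the ranges were 5 to 6, 6 to 6, 0 to 3, 3 to 5, 2 to 4 and 4 to 6, and for Eff 3 to 4, 4 to 5, 1 to 2, 0 to 2, 1 to 2 and 0 to 0, in the same order.

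With the GC trend subtracted 10 values changed sign with a call on at least 1 side: Cebpb RPF in brown cultures (1.08), RNA in white cultures (-0.52) and Eff in both (1.63 and 0.95), Cebpa Eff in both (1.18 and 0.054), the Cebpa RPF lineage by day term (0.10), Hdac5 RNA between lineages at day 5 (0.19), and RNA of Cebpa (0.33) and Srebf1 (0.41) between tissues. With the day 5 share subtracted 4 Pparg values did: RPF between lineages at day 0 (0.72), the RPF lineage by day term (-0.078), and Eff in white cultures (0.24) and between lineages at day 0 (0.14). The trend subtraction also removes real change tied to GC content, and the cause was not tested. Low RPF depth limits Rxra, Esrra and Stat5b.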
